A study of Homo sapiens with 43 samples.

Results

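Fibrillin-1 (FBN1), the latent TGF-beta binding proteins LTBP1, LTBP2 and LTBP3, fibronectin (FN1), the TGF-beta-induced protein TGFBI and the thrombospondins THBS1 and THBS2 are secreted matrix proteins. Each stores TGF-beta, releases it or answers to it or, as LTBP2 and THBS2, is a relative of such a protein. These 8 genes were grouped on that basis, with earlier results of these data known, and all 8 were among the 20052 genes counted and the 16816 genes tested. They were followed in HMC3, an immortalised human line labelled microglial, which is 1 line with no second donor behind it. Flasks were kept for 3 days in medium alone, with ethanol vehicle, with dexamethasone (a synthetic glucocorticoid) at 1 or 0.01 µM, or with hydrocortisone (cortisol) at 10 or 0.01 µM. Each hormone dose had vehicle flasks of its own. Part of the cells of each flask was then reseeded in medium without hormone and taken on day 6, so that day 6 flasks descend from day 3 flasks. The 43 libraries of total RNA formed 13 groups of 3 and, for the vehicles of day 6, 4 groups of 1, which were used together as 4 vehicle libraries.

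TGF-beta is secreted in a latent complex. LTBP1 and LTBP3 bind that complex covalently and carry it to the matrix, where LTBP1 is laid down on fibronectin fibres and then held by fibrillin microfibrils. LTBP2 is built like the other binders and attaches to fibrillin-1 but does not carry TGF-beta, thrombospondin-1 can switch latent TGF-beta on, thrombospondin-2 lacks that activity and restrains vessel growth, and TGFBI is a secreted adhesion protein first found as a product of TGF-beta signalling. Glucocorticoids act through a nuclear receptor that can raise or lower transcription of its target genes.

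Libraries held 7638840 to 24426643 counts, of which ribosomal RNA genes took 9.90 to 94.86% (median 29.26%), which left 1083395 to 17542023 other counts. In 7 libraries, each of a different group, the ribosomal share was above 75%. Of 15 microglia and macrophage markers 4 were in the count table, and only MERTK, an engulfment receptor, had a median above 1 CPM, at 9.04. CPM are counts scaled to a common library size, for these cell type markers without the ribosomal RNA genes. CSF1R, TREM2 and CD68 had medians of 0.273, 0.248 and 0.112. Of 14 fibroblast and pericyte markers 12 were in the table and 9 had a median above 1 CPM, so the microglial label was not matched by CSF1R, TREM2 or CD68. The other 11 microglia markers, P2RY12 and TMEM119 among them, were not analysed here. FKBP5, TSC22D3, PER1 and KLF9, textbook targets of the glucocorticoid receptor, rose on day 3 at both dexamethasone doses and at 10 µM hydrocortisone (FKBP5 by 1.45 ± 0.14, 1.23 ± 0.15 and 1.20 ± 0.14 on the log2 scale, SE), and none of the 4 was called at 0.01 µM hydrocortisone (FKBP5 -0.12 ± 0.14).

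The 8 genes covered a wide range of levels. Per kilobase of exon, the median over the 3 libraries in medium was 450 CPM per kb for FN1, 140 for THBS1, 27.5 for THBS2, 17.3 for TGFBI, 1.26 for FBN1, 0.664 for LTBP2, 0.641 for LTBP3 and 0.304 for LTBP1. In these libraries the ranges of LTBP2 (0.660 to 0.789 CPM per kb) and LTBP3 (0.535 to 0.714) overlapped, and no other neighbours in this order did. FN1 and THBS1 were thus abundant and FBN1 and the 3 latent TGF-beta binders scarce, with raw counts of 6 to 179 per library for LTBP1 against 19531 to 318177 for FN1, and counting error is largest for LTBP1. Levels from here on are CPM of the TMM-scaled library, without division by length. Those of cell type markers, single or summed, are instead CPM without ribosomal RNA genes and are not on the scale of the 8 genes.

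On GRCh38 (GENCODE v29, positions from 1) FBN1 spans chr15:48408306-48645849 on the minus strand, LTBP1 chr2:32946972-33399509 (plus), LTBP2 chr14:74498170-74612378 (minus), LTBP3 chr11:65538805-65558930 (minus), FN1 chr2:215360440-215436172 (minus), TGFBI chr5:136028895-136063818 (plus), THBS1 chr15:39581079-39599466 (plus) and THBS2 chr6:169215780-169254044 (minus). FBN1 and THBS1 lie on the same chromosome and LTBP1 and FN1 on another, far apart in both cases. THBS1 shares 448 exonic bases with FSIP1 on the other strand, and FSIP1 had 0 to 22 counts where THBS1 had at least 2521. Whether the counting used strand is not given in the sources used here.

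RefSeq promoter windows (GRCh38.p14, 250 bases before to 50 after a start) were found for all 8 genes, 11 windows in all. The upstream 250 bases are shown for the pair that rose most with dexamethasone on day 3 (FBN1, LTBP2) and for the pair that fell (TGFBI, THBS2), since the members of each pair moved together. They lie at chr15:48644971-48645220 (minus), chr14:74612238-74612487 (minus), chr5:136028738-136028987 (plus) and chr6:169253847-169254096 (minus). The RefSeq starts used lie 879, 141, 93 and 198 bases inside the GENCODE spans of FBN1, LTBP2, TGFBI and THBS2. Capitals mark the SMAD-binding letters CAGACA on either strand (TGTCTG when on the other) and the TATA box TATAAA.
FBN1: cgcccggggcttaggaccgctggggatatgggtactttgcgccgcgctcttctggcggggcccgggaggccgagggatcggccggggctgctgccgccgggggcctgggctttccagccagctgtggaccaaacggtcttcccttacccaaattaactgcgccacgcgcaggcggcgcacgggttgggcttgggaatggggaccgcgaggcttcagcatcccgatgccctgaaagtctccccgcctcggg
LTBP2: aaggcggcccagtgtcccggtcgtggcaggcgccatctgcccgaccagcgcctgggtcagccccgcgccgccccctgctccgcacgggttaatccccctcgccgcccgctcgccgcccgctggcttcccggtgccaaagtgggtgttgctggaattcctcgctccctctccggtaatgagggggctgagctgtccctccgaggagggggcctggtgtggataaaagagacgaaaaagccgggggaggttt
TGFBI: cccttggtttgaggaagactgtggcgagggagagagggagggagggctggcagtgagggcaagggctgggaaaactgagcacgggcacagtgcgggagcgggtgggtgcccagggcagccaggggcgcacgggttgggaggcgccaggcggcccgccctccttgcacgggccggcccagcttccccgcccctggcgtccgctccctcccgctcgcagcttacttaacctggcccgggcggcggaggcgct
THBS2: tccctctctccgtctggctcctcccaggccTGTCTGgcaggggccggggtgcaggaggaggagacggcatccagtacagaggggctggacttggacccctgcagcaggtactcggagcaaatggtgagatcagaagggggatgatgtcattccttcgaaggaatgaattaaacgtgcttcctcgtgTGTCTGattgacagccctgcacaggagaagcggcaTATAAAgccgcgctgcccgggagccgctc
The THBS2 window held the SMAD-binding letters 220 and 64 bases before the start and TATAAA 29 bases before it, and the windows of FBN1, LTBP2 and TGFBI held none of the letters searched. Over the 11 windows CAGACA was in 3 (1 of THBS2 and 2 of LTBP1) against 16.9% of 35116 RefSeq windows of the same length, and TATAAA in 1 against 11.5%. The 2 LTBP1 windows with CAGACA overlap each other, with starts 187397 and 187624 bases inside the gene. The LTBP1 window at the gene start held none. The glucocorticoid response element letters AGAACA, a loose palindrome of that element and the AP-1 letters TGANTCA, searched on both strands, were in 0 of the 11 windows, against 14.8%, 0.39% and 7.71% of all windows. AGAACA and the palindrome can overlap each other, and only these windows were searched.

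Against its own vehicle on day 3, 1 µM dexamethasone raised 4 of the 8 genes and lowered 2 (24.9% of all genes tested were called). The median log2 change of the 8 was 0.42, against 0.017 over all genes. At 0.01 µM dexamethasone 3 rose and 2 fell (11% of genes called, medians 0.14 and 0.006), and at 10 µM hydrocortisone 3 rose and 2 fell (13.4% called, medians 0.14 and 0.012). At 0.01 µM hydrocortisone none was called by edgeR's quasi-likelihood test, nor was any other gene (0%), although 597 of 16816 genes had an unadjusted p under 0.05 and DESeq2 called 1. Adjusted p-values come from the edgeR test with Benjamini-Hochberg adjustment over all genes throughout, and the spread they measure is that between flasks of 1 line. In bulk RNA, fewer cells making a transcript and less transcript per cell cannot be told apart.

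**Figure D1:**
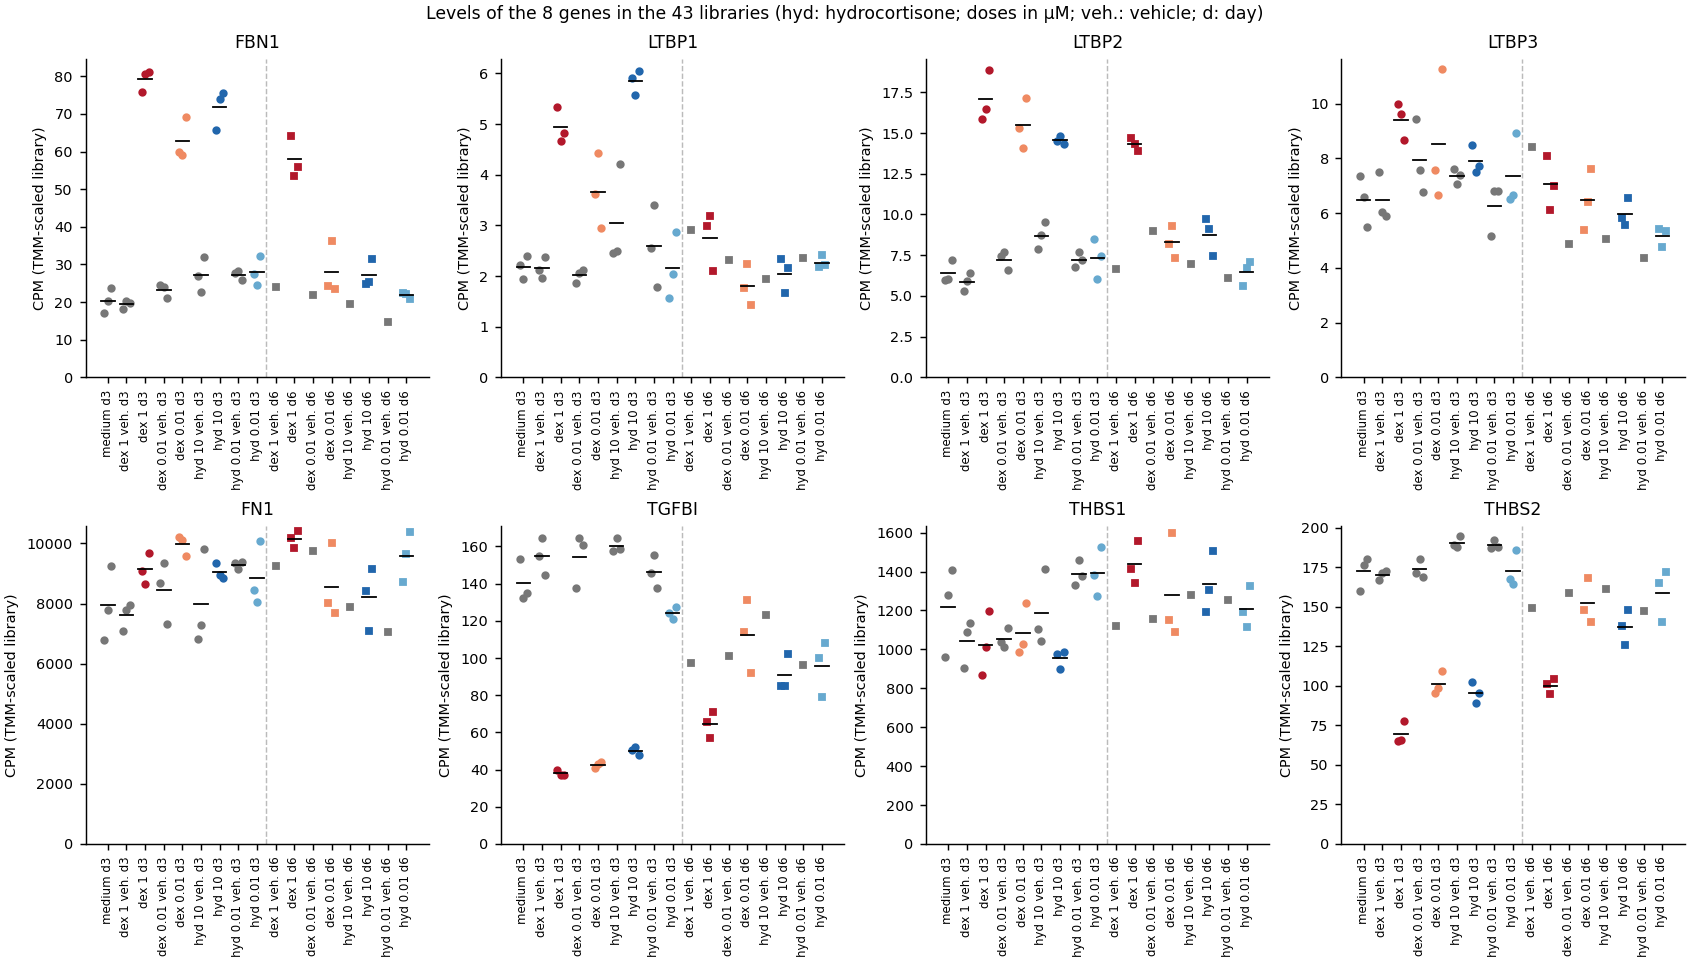
Level of each gene (CPM of the TMM-scaled library, axis from 0) in the 43 libraries by group, with circles for day 3, squares for day 6, grey for medium and vehicle, and black bars for means of 3. FBN1, LTBP1 and LTBP2 stand above and TGFBI and THBS2 below their vehicles on day 3 at both dexamethasone doses and at 10 µM hydrocortisone. FN1 (6790 to 10400 CPM) lies above its vehicle at both dexamethasone doses of day 3 and overlaps it at 10 µM hydrocortisone. THBS1 (867 to 1600 CPM) overlaps its vehicle at both dexamethasone doses and lies below it at 10 µM hydrocortisone. Neither FN1 nor THBS1 was called at these doses.

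FBN1, the chief structural protein of microfibrils, was the member that rose most. It read 75.8, 80.7 and 81.2 CPM with 1 µM dexamethasone and 18.1, 19.8 and 20.3 in the vehicle, a log2 change of 2.02 ± 0.13 (SE, n = 3 and 3, adjusted p = 1.92e-14), or 4.06-fold. With 0.01 µM dexamethasone it read 59.2, 60.0 and 69.2 CPM against 21.1, 24.0 and 24.5 (1.42 ± 0.14, adjusted p = 1.72e-09). All hormone libraries lay far above their vehicles at both doses. With 10 µM hydrocortisone FBN1 read 65.9, 74.0 and 75.7 CPM against 22.7, 26.9 and 32.1 (1.38 ± 0.13, adjusted p = 5.83e-10). With 0.01 µM hydrocortisone the libraries overlapped, at 24.5, 27.4 and 32.1 CPM against 25.8, 27.8 and 28.3, and the log2 change of 0.03 had a 95% interval from -0.23 to 0.30.

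LTBP2, the binder that attaches to fibrillin-1, moved in the same directions. Its levels were 15.8, 16.5 and 18.9 CPM with 1 µM dexamethasone and 5.29, 5.92 and 6.41 in the vehicle (log2 change 1.51 ± 0.12, adjusted p = 3.40e-15, 2.86-fold). At 0.01 µM dexamethasone the change was 1.08 ± 0.13 (adjusted p = 9.45e-09) and at 10 µM hydrocortisone 0.70 ± 0.12 (adjusted p = 1.78e-05). The smaller rise with hydrocortisone went with higher vehicle flasks, at 7.88, 8.71 and 9.52 CPM, while the hormone flasks were at 14.3, 14.5 and 14.8. Set against all 12 vehicle libraries of day 3, a reference shared by the 4 doses, LTBP2 rose by 1.01 with 10 µM hydrocortisone, 1.05 with 0.01 µM dexamethasone and 1.23 with 1 µM dexamethasone on the log2 scale.

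LTBP1, the main carrier of latent TGF-beta to the matrix, read 4.67, 4.82 and 5.34 CPM with 1 µM dexamethasone and 1.96, 2.12 and 2.37 in the vehicle (log2 change 1.19 ± 0.21, adjusted p = 7.80e-06). The change was 0.94 ± 0.24 at 0.01 µM dexamethasone (adjusted p = 0.00453) and 0.80 ± 0.19 at 10 µM hydrocortisone (adjusted p = 0.00239). At 10 µM hydrocortisone LTBP1 read 5.58 to 6.05 CPM, above the 1 µM dexamethasone libraries. The smaller change there went with higher vehicle flasks, at 2.45 to 4.22 CPM. Hormone and vehicle libraries did not overlap in any of the 3, but the call of each smaller rise was lost without a certain library. Without replicate 2 of the dexamethasone flasks the 0.01 µM change was 0.77 (adjusted p = 0.10), and without replicate 2 of the hydrocortisone vehicle the 10 µM change was 0.61 (adjusted p = 0.0605).

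LTBP3, the other covalent carrier, was called only with 1 µM dexamethasone, at 8.66, 9.61 and 9.97 CPM against 5.88, 6.05 and 7.49 (log2 change 0.57 ± 0.15, adjusted p = 0.00241). Its changes were -0.02 ± 0.16 at 0.01 µM dexamethasone, 0.10 ± 0.15 at 10 µM and 0.21 ± 0.15 at 0.01 µM hydrocortisone, and in these 3 comparisons hormone and vehicle libraries overlapped. The highest LTBP3 library of all, at 11.3 CPM, was the 0.01 µM dexamethasone replicate with 94.86% ribosomal counts. The difference between the dexamethasone doses, 0.59 ± 0.22, was not called (adjusted p = 0.561), so a dose limit for LTBP3 was not shown.

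FN1, the most abundant of the 8, was not called at any dose on day 3. It read 8660, 9071 and 9683 CPM with 1 µM dexamethasone against 7100, 7792 and 7945 (log2 change 0.26 ± 0.11, adjusted p = 0.0805), with a 95% interval from 0.04 to 0.49. The libraries did not overlap there or at 0.01 µM dexamethasone (0.24 ± 0.11, adjusted p = 0.184). Whether FN1 passed depended on the setting. With only the 2 groups of the comparison in the fit the rise at 1 µM was called (0.27, adjusted p = 0.0118), and against all 12 vehicle libraries so was that at 0.01 µM (0.26, adjusted p = 0.0276). With 10 µM hydrocortisone the change was 0.18 ± 0.11, and without replicate 3 of its vehicle, which had the highest FN1 level of the 3, it was 0.36 and called (adjusted p = 0.0282).

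THBS1, which can activate latent TGF-beta, read 867, 1010 and 1198 CPM with 1 µM dexamethasone and 906, 1090 and 1133 in the vehicle, a log2 change of -0.03 ± 0.15 with a 95% interval from -0.33 to 0.28. The change was 0.04 ± 0.15 at 0.01 µM dexamethasone and 0.01 ± 0.15 at 0.01 µM hydrocortisone, with overlapping libraries in each. At 10 µM hydrocortisone the 3 libraries, at 901, 975 and 988 CPM, lay below the vehicle's 1044, 1106 and 1413 (-0.32 ± 0.15, adjusted p = 0.172). That difference was not called here and was called with only those 2 groups in the fit (-0.32, adjusted p = 0.033) and with the replicate block (-0.43, adjusted p = 0.014).

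THBS2 went the other way from FBN1 and the binders. With 1 µM dexamethasone it fell to 65.0, 65.4 and 77.5 CPM from 167, 171 and 172 in the vehicle (log2 change -1.30 ± 0.08, adjusted p = 8.72e-20), a 2.46-fold fall. At 0.01 µM dexamethasone the libraries were at 95.6, 98.7 and 109 CPM against 169, 171 and 180 (-0.79 ± 0.08, adjusted p = 2.95e-11), and at 10 µM hydrocortisone at 89.1, 95.3 and 102 against 188, 189 and 195, where its log2 level fell by 1.00 (SE 0.08, adjusted p = 3.03e-15). THBS2 thus fell while its close relative THBS1 was not called at any of these doses, though the difference between the pair was not tested. At 0.01 µM hydrocortisone all 3 libraries (164, 168 and 186 CPM) were below the vehicle's 187, 187 and 192, and the change of -0.13 ± 0.08 was not called (adjusted p = 1).

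TGFBI, the product named for its induction by TGF-beta, fell most. It read 37.2, 37.2 and 39.6 CPM with 1 µM dexamethasone against 145, 155 and 165 in the vehicle, a log2 change of -2.03 ± 0.10 (adjusted p = 4.75e-20) or a 4.08-fold fall. At 0.01 µM dexamethasone it read 40.8, 43.2 and 44.1 CPM against 138, 161 and 165 (-1.87 ± 0.11, adjusted p = 1.08e-17), and at 10 µM hydrocortisone 47.9, 50.4 and 52.1 against 157, 159 and 164 (-1.68 ± 0.10, adjusted p = 2.84e-17). Replicates within each hormone group were close together. With 0.01 µM hydrocortisone the libraries at 121, 124 and 127 CPM stood below the vehicle's 138, 146 and 156, but the change of -0.24 ± 0.10 was not called (adjusted p = 1, unadjusted p = 0.0172).

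**Figure D2:**
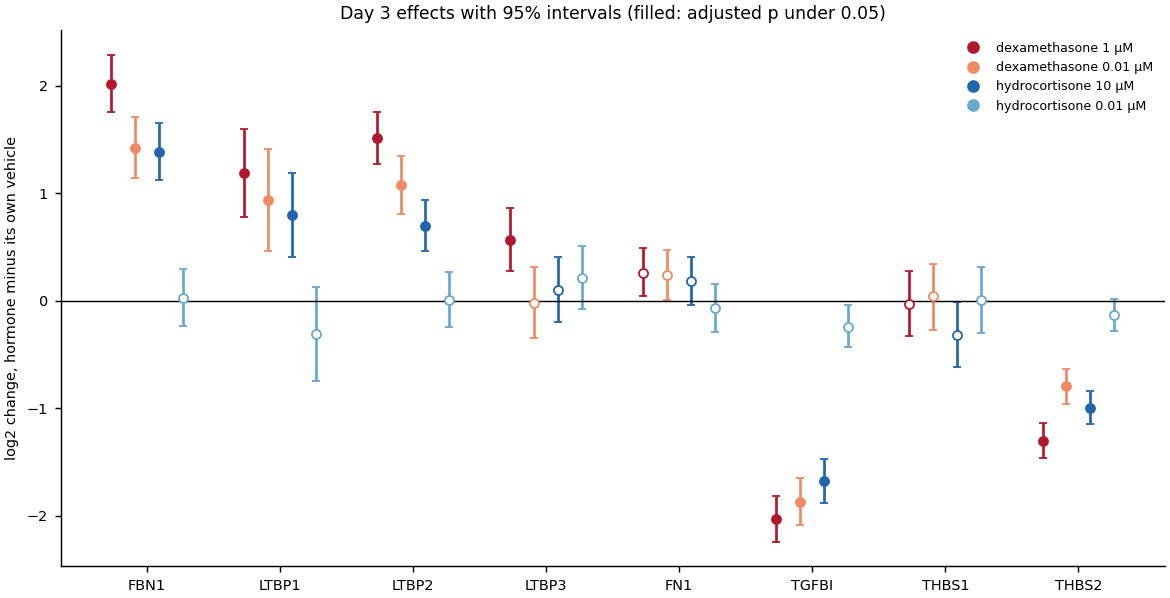
Log2 change of each gene on day 3 against the vehicle of the same dose, with 95% intervals and 3 libraries on each side, filled where the adjusted p was under 0.05. The filled points of FBN1, LTBP1, LTBP2 and, at 1 µM dexamethasone, LTBP3 are above 0, those of TGFBI and THBS2 below it, and the 0.01 µM hydrocortisone points are all open.

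Other marker lists moved in the same comparison. With 1 µM dexamethasone 6 of 12 tested fibroblast and pericyte markers rose and 2 fell, among them DCN (4.04 ± 0.41), MCAM (0.67 ± 0.08), COL1A2 (-0.62 ± 0.11) and VIM (-0.41 ± 0.06), with a summed level of 5340 to 5760 CPM in the hormone libraries and 4740 to 4970 in the vehicle (CPM without ribosomal RNA genes). At 0.01 µM dexamethasone and at 10 µM hydrocortisone 3 rose and 2 fell, where 24.9%, 11% and 13.4% of all genes were called at the 3 doses in that order. DCN was scarce, with a median of 0.410 CPM over all libraries and a range of 0 to 5.23. Of the microglia markers tested with 1 µM dexamethasone 1 of 3 was called, TREM2, at a level near 0, and of the astrocyte markers 1 of 3 rose and 2 fell, with a summed level of 177 to 198 CPM against 209 to 212. Of 2 endothelial markers tested KDR rose, also at a level near 0 (median 0.312 CPM over all libraries). The summed level of the endothelial list was 1.75 to 1.88 CPM against 1.10 to 1.35. Their part in the changes of the 8 genes was not tested. Of the 7 libraries above 75% ribosomal counts, 4 belonged to the day 3 hormone comparisons, and without all 7 the members called were the same genes in the same directions at every hormone dose on day 3.

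Ethanol by itself was compared with medium in 12 and 3 libraries of day 3. None of the 8 genes was called and no other gene was (0% of 16816, with 761 at an unadjusted p under 0.05, and 0 by DESeq2). All 8 ranges overlapped, and the changes ran from -0.07 ± 0.12 for THBS1 to 0.23 ± 0.12 for FBN1, which read 18.1 to 32.1 CPM (median 24.2) in vehicle and 17.04 to 23.84 in medium.

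The doses of dexamethasone could be told apart for none of the 8 genes, and 4 genes in all were called by edgeR (0.0238%), with 1097 at an unadjusted p under 0.05 and 14 called by DESeq2. The closest was THBS2, whose fall was deeper at 1 than at 0.01 µM by 0.50 ± 0.11 on the log2 scale (as a difference of vehicle-corrected changes, -0.50, adjusted p = 0.0667). It was called under 4 other settings, by DESeq2 (-0.50, adjusted p = 0.0232), with no low-count filter (-0.52, adjusted p = 0.0441), with the replicate block (-0.50, adjusted p = 0.0365) and with a single dispersion for all genes (-0.52, adjusted p = 0.0352). Without replicate 4 of the 1 µM flasks it was also called (-0.59, adjusted p = 0.0273). For FBN1 the difference was 0.60 ± 0.19 (95% interval 0.21 to 0.99, adjusted p = 0.499), for LTBP2 0.43 ± 0.18 (0.07 to 0.80) and for TGFBI -0.16 ± 0.15 (-0.45 to 0.14). These intervals do not show that the doses act alike.

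For hydrocortisone the doses did differ, in 5 of the 8 genes (4.68% of all genes). From 0.01 to 10 µM the vehicle-corrected change rose by 1.35 ± 0.19 for FBN1 (adjusted p = 3.99e-06), 1.11 ± 0.29 for LTBP1 (adjusted p = 0.0132) and 0.69 ± 0.18 for LTBP2 (adjusted p = 0.01). It was lower at the higher dose for TGFBI (-1.44 ± 0.14, adjusted p = 2.84e-10) and THBS2 (-0.87 ± 0.11, adjusted p = 3.43e-08). The LTBP1 difference was lost without any of 3 libraries (0.84 to 0.92) and in the fit of only the groups compared (1.11, adjusted p = 0.05), and that of LTBP2 without replicate 3 of the low dose (0.56, adjusted p = 0.0649).

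At the matched dose of 0.01 µM the hormones differed in the same 5 genes (4.70% of all genes). Dexamethasone carries a fluorine, a methyl group and a further double bond that hydrocortisone lacks. Its effect exceeded that of hydrocortisone by 1.39 ± 0.19 for FBN1 (adjusted p = 5.13e-06), 1.25 ± 0.32 for LTBP1 (adjusted p = 0.0121) and 1.07 ± 0.18 for LTBP2 (adjusted p = 5.07e-05). It was more negative for TGFBI (-1.63 ± 0.14, adjusted p = 3.49e-11) and THBS2 (-0.67 ± 0.11, adjusted p = 2.80e-05). LTBP3 (-0.23, 95% interval -0.67 to 0.21), FN1 (0.31, -0.01 to 0.63) and THBS1 (0.03, -0.40 to 0.46) were not called. The LTBP1 difference was lost without replicate 2 of either hormone's flasks or of the hydrocortisone vehicle (0.98 to 1.08). The upper doses, 1 and 10 µM, were not matched and their changes stand side by side above without a comparison.

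After 3 days of washout the effects of 1 µM dexamethasone were still seen in 4 of the 8 genes (12.1% of all genes). FBN1 read 53.5, 56.0 and 64.2 CPM against 14.7, 19.4, 21.8 and 24.1 in the 4 vehicle libraries (log2 change 1.56 ± 0.12, adjusted p = 6.02e-12). LTBP2 read 13.9, 14.3 and 14.7 CPM against 6.08, 6.64, 6.98 and 8.97 (1.01 ± 0.11, adjusted p = 3.63e-10). Both remained above every vehicle library of that day. TGFBI was at 56.8, 65.7 and 70.8 CPM against 96.4, 97.4, 101 and 123 (-0.69 ± 0.09, adjusted p = 4.10e-07) and THBS2 at 94.6, 101 and 104 against 147, 149, 159 and 161 (-0.62 ± 0.07, adjusted p = 2.58e-09). The 4 hormone targets of day 3 also still stood above all vehicle libraries of day 6. FKBP5 read 51.7 to 60.6 CPM against 27.5 to 32.9, and TSC22D3 12.2 to 18.6 against 2.55 to 3.08. PER1 read 16.4 to 24.5 CPM against 3.84 to 7.26, and KLF9 5.99 to 6.54 against 2.14 to 3.88. What this had to do with the values of the 8 genes was not tested.

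LTBP1 was no longer called on day 6 (2.09, 2.98 and 3.19 CPM against 1.94 to 2.91, log2 change 0.19 ± 0.20). LTBP3 was close to the threshold (0.39 ± 0.14, adjusted p = 0.0517), with 6.12, 7.001 and 8.07 CPM against 4.37, 4.89, 5.04 and 8.42. The vehicle library at 8.42 CPM had 77.12% ribosomal counts, and without the libraries above 75% LTBP3 was called (0.61, adjusted p = 0.00197), as it was without that library alone (0.60, adjusted p = 0.00255), without the third hormone replicate (0.46, adjusted p = 0.0325), with RLE size factors (0.41, adjusted p = 0.0451) or without the ribosomal RNA genes (0.39, adjusted p = 0.0498). FN1 (0.27 ± 0.10, adjusted p = 0.0831) and THBS1 (0.26 ± 0.14, adjusted p = 0.255) lay above all 4 vehicle libraries without being called, and both were called with only those groups in the fit (adjusted p = 0.0402 and 0.00837), FN1 also without the vehicle of the lower dexamethasone dose (0.34, adjusted p = 0.0389).

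At the other doses little was left on day 6. None of the 8 was called after 0.01 µM dexamethasone (0.0714% of genes, with 1255 at an unadjusted p under 0.05 and 18 called by DESeq2), where FBN1 was at 23.51, 24.37 and 36.13 CPM (0.50 ± 0.13, adjusted p = 0.186, and 0.0498 by DESeq2). None was called after 0.01 µM hydrocortisone by edgeR either (0.0833% of genes, with 1435 at an unadjusted p under 0.05 and 25 called by DESeq2, none of the 8). After 10 µM hydrocortisone 1 of 8, FBN1, was called (1.52% of genes), at 24.7, 25.5 and 31.5 CPM (0.47 ± 0.12, adjusted p = 0.0427). That call was lost with the replicate block (0.44, adjusted p = 0.0655) and without any of 4 single libraries, namely the third and the fourth hormone replicate and the 2 hydrocortisone vehicles (0.33 to 0.52).

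**Figure D3:**
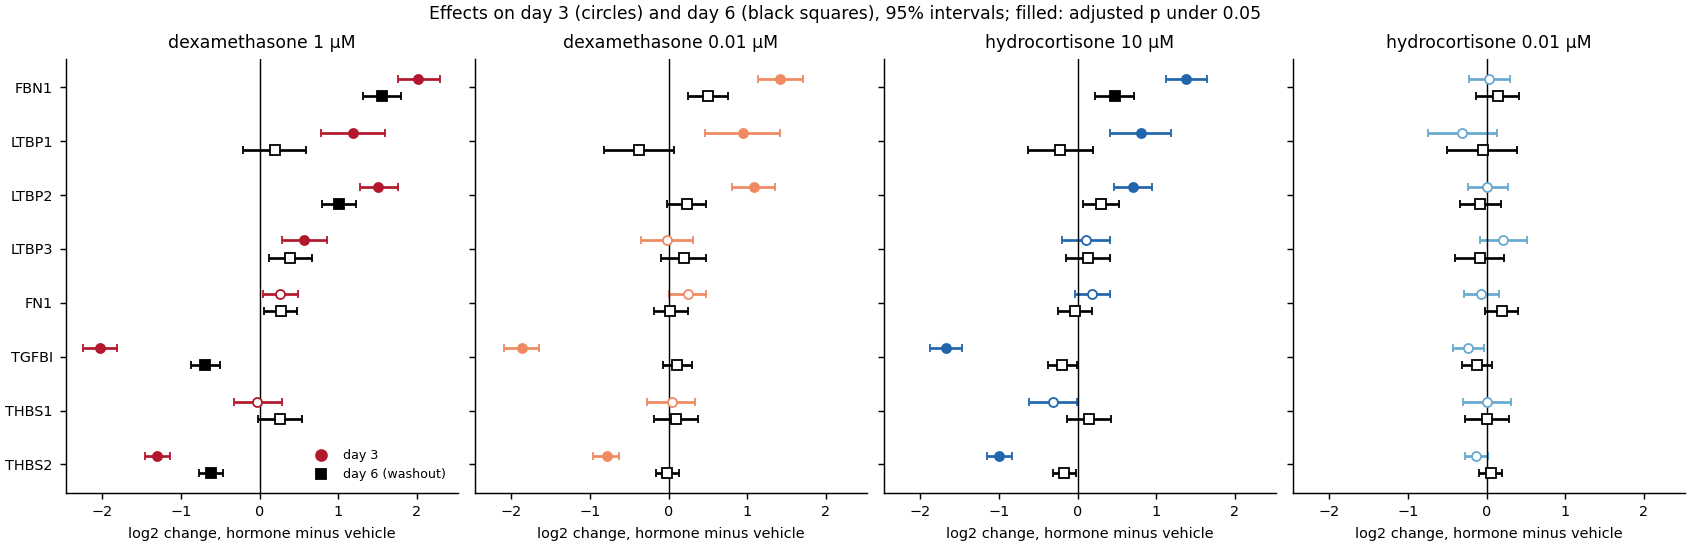
Log2 change against vehicle on day 3 (coloured circles, own vehicle, 3 libraries on each side) and day 6 (black squares, 3 libraries against the mean of 4 vehicle libraries) with 95% intervals, filled where the adjusted p was under 0.05. With 1 µM dexamethasone FBN1 and LTBP2 stay far to the right of 0 on day 6 while TGFBI moves from -2.03 to -0.69, and at 0.01 µM all squares are open.

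The change over the washout was tested by subtracting the day 3 effect from that of day 6, with the vehicle groups of each day averaged as the reference. For 1 µM dexamethasone 2 of 8 genes rose and none fell (1.91% of genes): TGFBI by 1.33 ± 0.13 (adjusted p = 3.97e-10) and THBS2 by 0.76 ± 0.10 (adjusted p = 1.84e-07), that is, their falls shrank. FBN1 (-0.16, 95% interval -0.48 to 0.16) and LTBP2 (-0.22, -0.51 to 0.08) showed no change that passed against this averaged reference. LTBP1 (-0.78 ± 0.26, adjusted p = 0.106) did not pass either, except without replicate 3 of the 10 µM hydrocortisone vehicle of day 3 (-0.89, adjusted p = 0.044). On day 3 the own vehicle of 1 µM dexamethasone averaged 19.4 CPM for FBN1 and 5.87 for LTBP2. All 12 vehicle libraries of that day averaged 24.3 and 7.26. The day 3 effects of both genes are therefore larger against their own vehicle, as given further above, than in this test. A change from those larger effects was not tested, so a lack of change is not shown for FBN1 and LTBP2. Whether FBN1 and LTBP2 differed from TGFBI and THBS2 in how far they went back was not tested.

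For 0.01 µM dexamethasone 2 rose and 3 fell over the washout (5.31% of genes). The log2 values were -0.85 ± 0.17 for FBN1 (adjusted p = 0.000713), -1.03 ± 0.28 for LTBP1 (adjusted p = 0.0162) and -0.82 ± 0.16 for LTBP2 (adjusted p = 0.000197), and TGFBI rose by 1.98 ± 0.13 (adjusted p = 1.56e-15) and THBS2 by 0.83 ± 0.10 (adjusted p = 5.08e-09). For 10 µM hydrocortisone 2 rose and 3 fell (8.82% of genes), with TGFBI at 1.42 ± 0.12, THBS2 at 0.75 ± 0.09, FBN1 at -1.11 ± 0.16, LTBP2 at -0.71 ± 0.15 and LTBP1 at -1.44 ± 0.25. With the replicate block THBS1 was called as well for that dose (0.46, adjusted p = 0.0379, against 0.43 and 0.148 without it). These 5 genes went back towards vehicle at both doses. For 0.01 µM hydrocortisone none of the 8 was called by edgeR (0.00595% of genes, 1 gene, with 893 at an unadjusted p under 0.05 and 1 called by DESeq2). The LTBP1 fall after 0.01 µM dexamethasone was lost without any of 3 single libraries of that dose (-0.99 to -0.87) and without those above 75% ribosomal (-0.92, adjusted p = 0.0625).

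The vehicle itself drifted. From day 3 to day 6 TGFBI fell in vehicle from 138 to 165 CPM (median 156, 12 libraries) to 96.4 to 123 (4 libraries), a log2 change of -0.57 ± 0.07 (adjusted p = 1.92e-06), with 0.482% of all genes called. THBS2 went from 167 to 195 CPM (median 184) to 147 to 161, a log2 change of -0.23 ± 0.06 (adjusted p = 0.0286). The 2 days did not overlap for either gene. The fall of THBS2 was lost without any of 3 day 6 vehicle libraries, the low-dose hydrocortisone one and both dexamethasone ones (-0.24 to -0.21). LTBP3 (-0.32 ± 0.11, adjusted p = 0.25) was called without the vehicle library of day 6 with 77.12% ribosomal counts (-0.53, adjusted p = 0.0276). TGFBI on day 6 is thus read against a vehicle level lower than that of day 3.

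**Figure D4:**
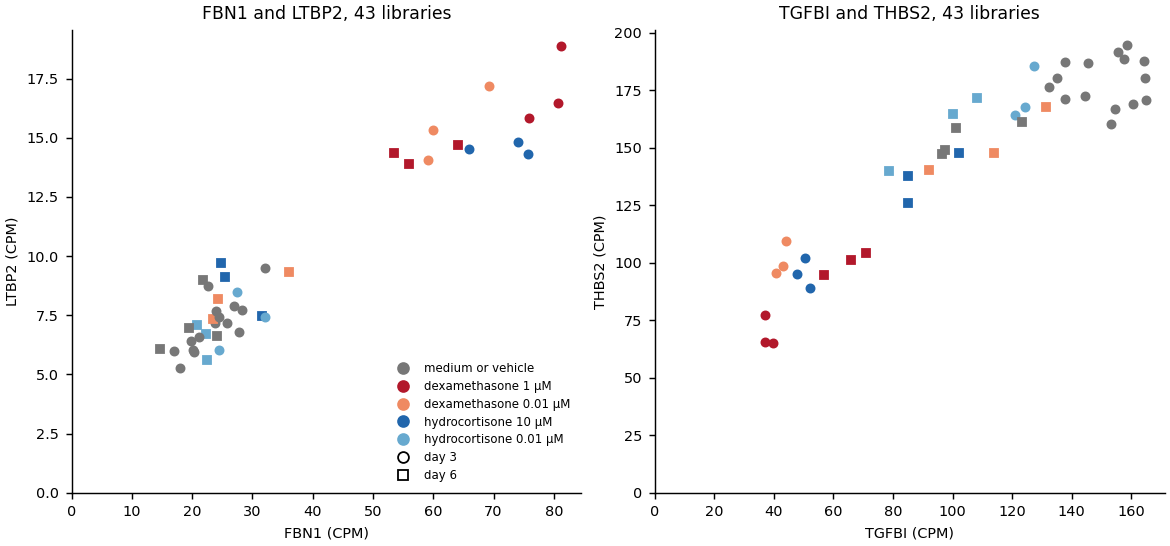
LTBP2 against FBN1 and THBS2 against TGFBI, both axes in CPM from 0, with 1 point for each of the 43 libraries (circles day 3, squares day 6, grey for medium or vehicle). FBN1 and LTBP2 are high together in the same 12 libraries, those of day 3 with either dexamethasone dose or 10 µM hydrocortisone and those of day 6 after 1 µM dexamethasone, and TGFBI and THBS2 are low together in those 12.

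Across the 17 group means of log2 CPM FBN1, LTBP1 and LTBP2 formed a set opposed to TGFBI and THBS2. FBN1 and LTBP2 had a Pearson r of 0.96, FBN1 and LTBP1 0.81 and LTBP1 and LTBP2 0.76. TGFBI and THBS2 had an r of 0.96 with each other and between -0.76 and -0.88 with FBN1, LTBP1 and LTBP2. LTBP3 and FN1 followed FBN1 more loosely, with r of 0.70 and 0.61, and had -0.40 and -0.53 with TGFBI. FN1 and THBS1 had an r of 0.01 with each other, and THBS1 and THBS2 of 0.37. These are descriptions over groups that share the hormone contrasts and the library scaling. Among the 11670 genes compared, all above a mean log2 CPM of 1, THBS2 was the closest to TGFBI (0.958, then MYO10 at 0.949), while the closest to THBS2 were AMIGO2 (0.972) and HK2 (0.962). For FBN1 they were EPS8L2 (0.981) and TNS3 (0.976), for LTBP2 RXRA (0.969) and ADPRHL1 (0.965), and for LTBP1 EMP2 (0.957) and AKAP5 (0.946). Likeness was weaker for the other genes, with PRICKLE2 at 0.884 for LTBP3, GCN1 at 0.904 and DDX41 at 0.886 for FN1, and WNT5B at 0.810 and LY6K at 0.799 for THBS1.

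Partners of the 8 genes were then counted in 6 lists. Among microfibril and elastic fibre partners 7 of 13 tested genes rose and none fell with 1 µM dexamethasone (24.9% of all genes called, list median 0.61 against 0.017 over all genes). At 0.01 µM dexamethasone 4 rose and none fell (11% of all genes called, medians 0.23 and 0.006). With 10 µM hydrocortisone 4 rose and 1 fell (13.4% of all genes called, medians 0.34 and 0.012). EFEMP1, a fibulin-family glycoprotein, rose by 1.40 ± 0.11, 1.05 ± 0.13 and 0.97 ± 0.11 at the 3 doses in that order, the fibrillin FBN2 by 1.10 ± 0.13, 0.79 ± 0.13 and 0.80 ± 0.13, and FBLN1, another fibulin, by 0.98 ± 0.12, 0.79 ± 0.14 and 0.46 ± 0.13. With hydrocortisone the gene that fell was LOX, the crosslinking oxidase (-0.66 ± 0.17), a name taken after its value was seen. Of the 17 genes of the list ELN, MFAP4, MFAP5 and FBN3 were not tested.

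Ligands and receptors of TGF-beta gave 2 rises and 1 fall among 8 tested with 1 µM dexamethasone (median 0.30, and 0.33 and 0.09 at the other doses), where 24.9% of all genes were called. The signalling receptors TGFBR2 (0.76 ± 0.12) and TGFBR1 (0.41 ± 0.08) rose and the ligand TGFB2 (-0.61 ± 0.15) fell. At 0.01 µM dexamethasone both receptors rose (0.63 ± 0.14 and 0.51 ± 0.08) with no fall (11% of all genes called), and with 10 µM hydrocortisone they rose (0.63 ± 0.12 and 0.46 ± 0.08) and the co-receptor ENG fell (-0.57 ± 0.13, 13.4% of all genes called). TGFB1, the main ligand, was not called with 1 µM dexamethasone (0.22 ± 0.14, adjusted p = 0.256).

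Genes that activate or process latent TGF-beta were mixed, with 5 rises and 3 falls among 13 tested at 1 µM dexamethasone, 3 and 2 at 0.01 µM, and 4 and 4 with 10 µM hydrocortisone (medians -0.01, -0.07 and -0.17), against 24.9%, 11% and 13.4% of all genes called. The integrin subunit ITGB3 rose by 1.40 ± 0.16, 1.46 ± 0.19 and 0.71 ± 0.17 at the 3 doses, and ITGB5 by 0.61 ± 0.10, 0.55 ± 0.11 and 0.55 ± 0.11. The procollagen protease BMP1, which also cuts LTBP1, rose by 0.93 ± 0.11, 0.43 ± 0.12 and 0.51 ± 0.11, and its relative TLL1 fell at all 3 (-1.29 ± 0.19, -0.61 ± 0.19 and -0.84 ± 0.17).

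Among SMAD transducers and feedback genes 3 rose and 1 fell of 12 with 1 µM dexamethasone, none and 1 at 0.01 µM, and 2 and 1 with 10 µM hydrocortisone (medians 0.10, -0.00 and -0.01). The shares of all genes called were 24.9%, 11% and 13.4%, and 4, 1 and 3 of 12 called are too close to these to be read as a result about the list. SMURF2, a ubiquitin ligase that marks receptors and SMADs for breakdown, fell at all 3 (-1.58 ± 0.09, -1.25 ± 0.09 and -1.22 ± 0.08), and the inhibitory SMAD6 rose at 1 µM dexamethasone (1.31 ± 0.24) and with hydrocortisone (0.92 ± 0.26).

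The TGF-beta response genes did not move one way, with 5 rises and 5 falls of 15 at 1 µM dexamethasone, 1 and 5 at 0.01 µM, and 2 and 5 with 10 µM hydrocortisone (medians 0.17, -0.00 and -0.19), where 24.9%, 11% and 13.4% of all genes were called. INHBA, the activin subunit (-1.71 ± 0.11, -1.18 ± 0.12 and -1.30 ± 0.11), and the cytokine IL11 (-2.26 ± 0.26, -2.21 ± 0.27 and -1.98 ± 0.23) fell at all 3. Among matricellular relatives and receptors 1 rose and 2 fell of 11 at 1 µM dexamethasone, none and 2 at 0.01 µM, and 1 and 3 with 10 µM hydrocortisone (medians -0.09, -0.06 and -0.11), that is, 3, 2 and 4 of 11 called where 24.9%, 11% and 13.4% of all genes were. Tenascin-C (TNC) fell at all 3 (-0.88 ± 0.17, -1.14 ± 0.18 and -1.04 ± 0.17). With 0.01 µM hydrocortisone no gene of the 6 lists was called.

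**Figure D5:**
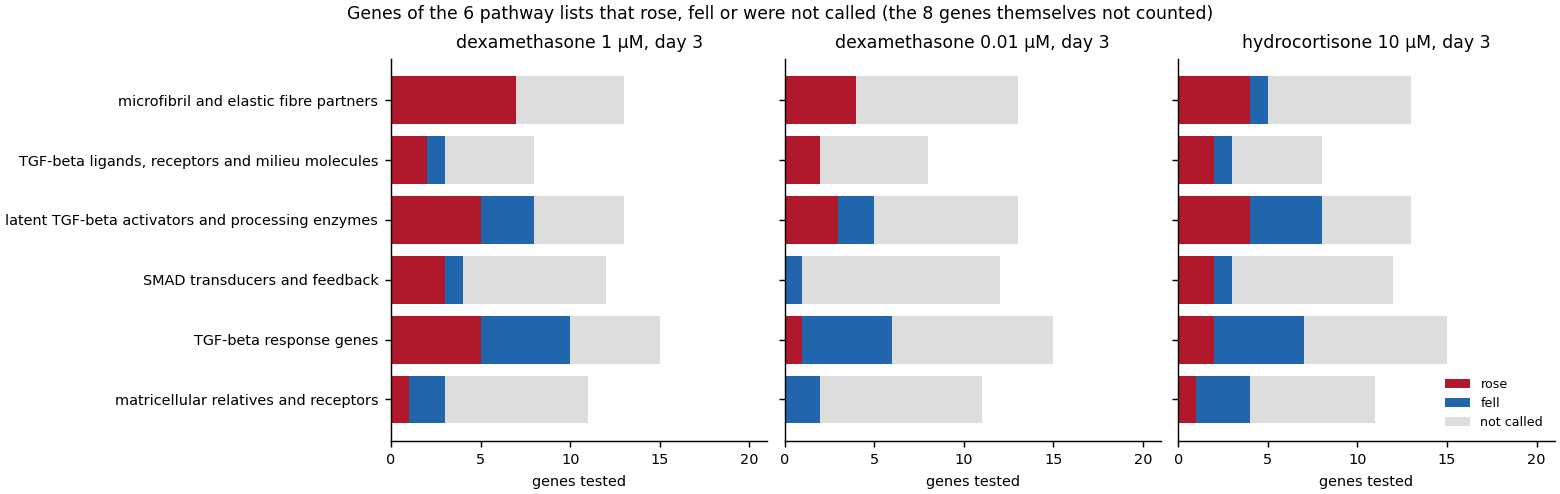
Number of tested genes in each of the 6 lists that rose (red), fell (blue) or were not called (grey) on day 3 against the vehicle of the same dose, with the 8 genes themselves left out. Microfibril partners show 7 rises and no fall with 1 µM dexamethasone, and the TGF-beta response genes 5 of each.

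On day 6 after 1 µM dexamethasone 4 of 13 microfibril partners were still raised and none lowered (12.1% of all genes), EFEMP1 by 0.89 ± 0.11, FBN2 by 0.54 ± 0.12, FBLN1 by 0.47 ± 0.12 and FBLN5 by 1.25 ± 0.36. Of 8 ligands and receptors only TGFBR2 was called (0.87 ± 0.12), and of 12 SMAD genes only SMURF2 (-0.86 ± 0.08). Among the activators 5 rose and 3 fell of 13, ITGB3 at 0.98 ± 0.15 and TLL1 at -0.89 ± 0.15 among them. Among the response genes 5 rose and 4 fell of 15, with INHBA at -1.26 ± 0.10 and IL11 at -1.06 ± 0.20, and of 11 matricellular genes none rose and 2 fell, TNC at -0.85 ± 0.15. No microfibril partner was called after 0.01 µM dexamethasone or 10 µM hydrocortisone, where 0.0714% and 1.52% of all genes were called, so that 0 of 13 is near the general share.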

How the data were processed

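The authors deposited 1 table of whole-number counts, not normalised, with Ensembl identifiers in its header column, and it was used for all 43 libraries. Per the labels' protocols, libraries came from a stranded total RNA kit and were read as paired ends. GRCh38 and the tools STAR, Subread, featureCounts and FastQC appear in the submitters' processing notes without versions. Of the identifiers 19978 matched the table of current symbols, 70 more matched GENCODE v29 and 4 matched neither. Libraries of a group differed by 1.51 to 3.30 times their counting variance (39 pairs), so none was counted as a repeat.

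edgeR 4.0.16 (R 4.3.3) was run with TMM scaling, filterByExpr (minimum count 10, minimum total 15), robust glmQLFit with trended dispersions, 17 group means and 26 residual degrees of freedom. The threshold was an adjusted p of 0.05. Day 3 hormone groups were set against their own vehicle and day 6 groups against the mean of 4 vehicle libraries, each assumed to vary like the other groups. CPM used the effective library size, or for cell type markers a size without ribosomal RNA genes, and exon lengths are the union of GENCODE v29 exons. Trended dispersions (0.00537 to 0.0386) were taken after both sets of results had been seen, because 1 dispersion for all genes came to 0.487 with the ribosomal RNA genes and 0.00883 without them. Tested on simulated data for 1 µM dexamethasone on day 3 (16294 genes), the script recovered 97.0% of genes changed by 1 on the log2 scale and 100% of those changed by 2, and called 0.0932% of the others.

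Genes named are the 8, the 4 hormone targets, the 2 closest patterns of each of the 8, and up to 3 called genes of smallest p per list and dose, with the day 6 values of those genes, FBLN5, TGFB1, the genes not tested and the markers added after their values were seen. Some genes that this rule names are not reported here. The genes and lists were chosen with earlier results of these data known. Alternatives were DESeq2 1.42.0, RLE size factors, no filter, no ribosomal RNA genes, no libraries above 75% ribosomal, only the groups compared, other references, a replicate block, a single dispersion (added after seeing the data) and leaving out each library.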

Additional observations from a re-analysis of the deposited data

Results flagged for a closer look

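Some effects differed between doses, hormones or days by a test of the difference itself (edgeR's quasi-likelihood test, log2 scale, adjusted over all genes).

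Between 10 and 0.01 µM hydrocortisone the vehicle-corrected change on day 3 differed for FBN1 (1.35), LTBP1 (1.11), LTBP2 (0.69), TGFBI (-1.44) and THBS2 (-0.87). Between dexamethasone and hydrocortisone at 0.01 µM it differed for FBN1 (1.39), LTBP1 (1.25), LTBP2 (1.07), TGFBI (-1.63) and THBS2 (-0.67).

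Between day 6 and day 3 the effect of 1 µM dexamethasone differed for TGFBI (1.33) and THBS2 (0.76). That of 0.01 µM dexamethasone differed for FBN1 (-0.85), LTBP1 (-1.03), LTBP2 (-0.82), TGFBI (1.98) and THBS2 (0.83). That of 10 µM hydrocortisone differed for FBN1 (-1.11), LTBP1 (-1.44), LTBP2 (-0.71), TGFBI (1.42) and THBS2 (0.75). LTBP1 rests on 6 to 179 counts per library, and 3 of its 4 differences named here were lost when some single libraries were left out, all but that of 10 µM hydrocortisone between the days.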

How the results depend on the processing

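Over all comparisons the 8 genes gave 1151 values under the alternatives and 1656 with a library left out. Of the first, 1129 kept their call, 4 lost it and 18 gained one, and of the second 1630 kept it, 19 lost it and 7 gained one, and no called value changed sign. Sign changes where neither setting made a call (91) were not counted as reversals. The number of genes called for the dexamethasone dose rose from 0 to 1, THBS2, with DESeq2, no low-count filter, the replicate block and a single dispersion. After washout it went from 0 to 1 for 0.01 µM dexamethasone with DESeq2 and from 1 to 0 for 10 µM hydrocortisone with the replicate block, and the cause was not tested. In all other comparisons the count stayed within 1.5 times, though the genes could differ: THBS1 was added under the block for 10 µM hydrocortisone on day 3 (-0.43, adjusted p = 0.014) and over its washout (0.46, adjusted p = 0.0379), and without the libraries above 75% ribosomal LTBP3 (-0.51) took the place of THBS2 in the drift of the vehicle.

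With each library left out, the count ran on day 3 from 6 to 6 for 1 µM and 4 to 5 for 0.01 µM dexamethasone, 4 to 6 for 10 µM and 0 to 0 for 0.01 µM hydrocortisone, 0 to 0 for the vehicle, 0 to 1 and 4 to 5 for the dexamethasone and hydrocortisone doses and 4 to 5 between hormones. On day 6 it ran from 4 to 5, 0 to 0, 0 to 1 and 0 to 0, over the washout from 2 to 3, 4 to 5, 5 to 5 and 0 to 0, and for the drift of the vehicle from 1 to 2.

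Same-numbered libraries of day 3 and day 6 had r from -0.20 to 0.24, over 0.1 in 7 of 12 pairs, where 130 of 524 differently numbered pairs were. For 10 µM hydrocortisone all 3 pairs were over 0.1 (0.24, 0.18 and 0.19), and for the other doses not all were. Between hormone and vehicle r ran from -0.23 to 0.13, over 0.1 in 2 of 9. The labels do not tie the numbers to flasks of origin, and the replicate block was kept as an alternative. Beyond the changes given for THBS2, FBN1 and THBS1 it changed no call of the 8 genes. Against all 12 vehicle libraries the number of all genes called with 10 µM hydrocortisone rose from 2250 to 4848, and with 0.01 µM dexamethasone from 1842 to 2969, while only the groups compared gave 1109 at the latter. Depth limits LTBP1 most, and with 3 flasks per group small changes of FN1, THBS1 and LTBP3 stayed near the threshold.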
